A study of Rattus norvegicus with 2 samples.

Results

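Potassium channel genes were measured in RNA of the whole hypothalamus of 9-week-old Wistar Kyoto (WKY) rats, a normotensive laboratory strain. The female pool held RNA of 5 female rats and the male pool RNA of 5 male rats, 100 ng from each animal, with no drug or genetic change recorded for either. Below, females and males stand for these 2 pools. Each pool was hybridised to 1 single-colour Agilent array, from a shared slide scanned once. Each sex thus had 1 array of pooled animals, no spread between rats could be measured, and no test between the sexes was possible. The members were all genes whose name in the array annotation began with Kcn, further letters and a number. They numbered 91 of 26334 named genes or other targets, carried by 128 of 30367 probes and 137 of 42877 spots.

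Potassium channels let potassium ions leave the cell, which holds the membrane near its resting potential, ends each action potential and sets how fast a neuron fires. Voltage-gated channels (Kcna, Kcnb, Kcnc, Kcnd, Kcnh, Kcnq) open on depolarisation, and Kcnf, Kcng, Kcns and Kcnv encode subunits that carry no current alone and modify Kv2 channels. Inward rectifiers (Kcnj) and 2-pore channels (Kcnk) work near rest. Kcnma, Kcnn and Kcnt encode channels gated by calcium or sodium, and Kcnab, Kcne, Kcnip and Kcnmb encode auxiliary subunits that change the gating or traffic of the others. In the hypothalamus the ATP-sensitive channel of Kcnj11 couples glucose to firing, and the G protein-gated channels of Kcnj3, Kcnj5, Kcnj6 and Kcnj9 carry inhibition by opioids and other transmitters.

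Levels are log2 processed intensity of a spot less log2 of the 75th percentile over all non-control spots of that array, so a level of 0 is that percentile. The percentile was 2943 intensity units in females and 3769 in males. Every difference is female minus male on the log2 scale. The technical SD given with a difference is that of repeated spots of 1 probe at a like level, and it leaves out rats, pooling, labelling and hybridisation. Its dimmest class of levels is broad, from -7.31 to -3.93, and the SD was not measured separately for the dimmest spots. Bands of slide rows, 81 to 180, 401 to 460 and 521 to 532, held many spots that departed from the other spots of their own probe, 5.45% against 0.805% elsewhere. All measured spots lay inside these bands for 20 members, among them Kcnj3, Kcnk16 and Kcnn4. Scaling on spike-in controls lowered every difference by 0.093, so positive differences smaller than this turned negative with that scaling. Neuronal markers were well above background in both pools, among them the vesicular transporter genes Slc32a1, with a level of 4.78 in females and 4.75 in males, and Slc17a6, with 3.09 in females and 3.11 in males.

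Most of the channel repertoire was detected. Of the 91 genes, 83 were well above background in both pools, a share of 91.2%, against 78.5% of all named targets. Kcnj1, the kidney channel gene ROMK, was well above background in males only. It was so with 1 of its 3 probes, at -7.93 in females and -6.36 in males. Set against the lowest level called well above background in females, -7.72, which is not a strict limit, this probe was 2.58-fold higher in males. The other 2 probes, on another transcript record and well above background in neither pool, differed by 0.98 and 0.11. These 2 thus read higher in females. The spot called in males only lay inside a band. The other 7 were well above background in neither pool, namely Kcna10, the strong inward rectifier gene Kcnj2, Kcnj15, the trigeminal ganglion channel gene Kcnk18, the auxiliary genes Kcne1 and Kcne3, and Kcnmb1, the beta subunit of vascular smooth muscle. The subfamilies with undetected genes were therefore Kcna, Kcnj, Kcnk, Kcne and Kcnmb, with 7 of 8, 12 of 15, 13 of 14, 3 of 5 and 3 of 4 genes measured in both pools. Every gene of the remaining 14 subfamilies was measured in both.

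**Figure D1:**
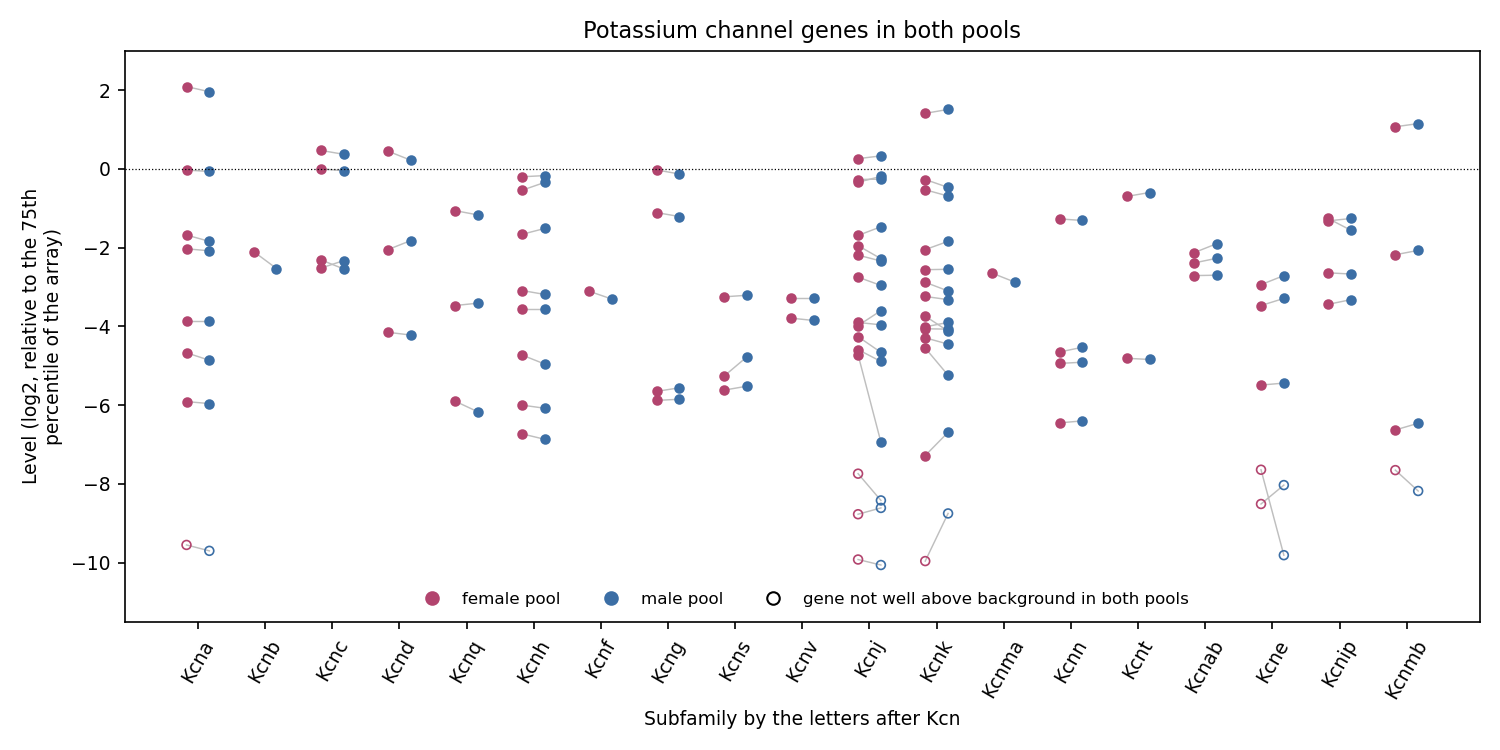
Level of 89 of the potassium channel genes (vertical axis, log2 relative to the 75th percentile of the array, dotted line at 0) by subfamily (horizontal axis). The female pool is left and the male pool right in each subfamily, lines join the pools of 1 gene, and open circles mark the 8 genes not well above background in both pools. Among genes measured in both pools the line of Kcnj13 is the steepest, and 7 of these genes in females and 6 in males lie above 0.

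Levels of different probes cannot be read as relative amounts of RNA, and the members showed how far probes of 1 gene can part. Of 25 members with several measured probes, the brightest and the dimmest probe differed by a median of 1.75 log2, and by 8.70 for Kcng1. In the difference between the pools, probes of 1 member spread by a median of 0.14. That is not small beside the differences themselves, whose robust SD over the measured members was 0.19. All measured probes of a gene had the same sign in 16 of 25 members, 64.0%, against 56.9% of other genes. Over the 2887 other genes with several measured probes the median spreads were 2.09 for the level and 0.13 for the difference.

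Kcng1, which encodes the silent subunit Kv6.1, is the extreme case and its probe sequences are shown for that reason. A pair of its probes had levels of -4.46 and -4.00 in females, against -4.68 and -3.96 in males. The other pair, annotated to an older mRNA record of the gene, had 4.30 and 4.05 in females, against 3.95 and 4.18 in males. The bright pair hold only A and G over their whole 60 bases. The first 30 bases of each probe follow, 5′ to 3′, with every C and T in capitals, named by the base of the transcript record at which the probe starts.
Kcng1 probe at 1209: aTgTgCCaCaaCgTCTTCaTCgTagagTCg
Kcng1 probe at 2618: ggggaCaCCaaCaagCCggTCaTCTCTgCT
Kcng1 probe at 2551: aggaagaagaagaagaaggaggaggaggag
Kcng1 probe at 2553: agaagaagaagaagaagaggaggaggagga
On the whole array 22 of 30359 probes with an unflagged spot held only A and G, and 20 of these 22 lay above the 75th percentile in each pool. Their median level was 3.74 in females and 3.56 in males, against -3.49 and -3.54 for all other probes. The gene mean of Kcng1, -0.027 in females and -0.13 in males, thus averages probes far apart. Its difference was 0.10 with all 4 probes and 0.090 without the A and G probes.

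Within 1 transcript record the probe placed last was often the brighter one. This held for 17 of 26 records of the members in females and 19 of 26 in males, 65.4% and 73.1%, against 73.9% and 73.8% of 2932 records of other genes. The median gain was 0.84 and 0.67 log2 for the members, against 1.43 and 1.45 for other genes. The 26 include the older mRNA record of Kcng1, whose probes start at bases 2551 and 2553. For other genes only RefSeq mRNA records were counted. Kcnk16, known from pancreatic islets, gave levels of -8.21, -6.05 and -1.97 along its transcript in females, against -7.50, -5.86 and -1.94 in males. Its first probe was well above background in neither pool, and its other probes lay inside the bands. The photoreceptor subunit gene Kcnv2 had -9.40 and -3.79 in females, against -9.16 and -3.85 in males, and its first probe too was well above background in neither pool. The beta subunit gene Kcnab1 had -4.76 and -0.024 in females, against -4.69 and 0.14 in males. The order was the opposite for Kcnq5, with -5.35 and -6.45 in females, against -5.64 and -6.70 in males. The last probes of Kcnk16, Kcnv2 and Kcnab1 hold AATAAA, the letters of the polyadenylation signal that precedes the end of an mRNA, in capitals in these 30-base stretches, 5′ to 3′.
Kcnk16 probe at 683: agcaagcactacattgcggtgtatcggagc
Kcnk16 probe at 2254: gagtccggtgttAATAAActtggctgctgt
Kcnv2 probe at 1735: gaaaatggctgaatgtttatctggaagtaa
Kcnv2 probe at 5141: tgttatgtattaAATAAAggctgatcgtcc
Kcnab1 probe at 965: tgaacggctgatgacaattgcctatgagag
Kcnab1 probe at 3428: tttgcttagagtAATAAAggcatctgcaat
AATAAA was searched as written and, for the other strand, as TTTATT, and matches of both could overlap in part. AATAAA was found in 9 of 128 member probes, 7.03%, and in 8.39% of all probes, and TTTATT in 3.12% and 2.87%. Over all probes the median level was -1.18 in females and -1.14 in males with AATAAA, against -3.66 and -3.70 without it. For the members the medians were -1.27 in females and -1.56 in males with it, against -3.43 and -3.32 without it. Large gains also occurred where the last probe lacks AATAAA. The gain of Kcnk13 was 5.10 in females and 5.02 in males, and that of Kcnj5 was 5.38 in females and 5.84 in males. The probe of Kcna10 holds AATAAA but was well above background in neither pool, at -9.55 in females and -9.70 in males. A match describes the probe only.

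**Figure D2:**
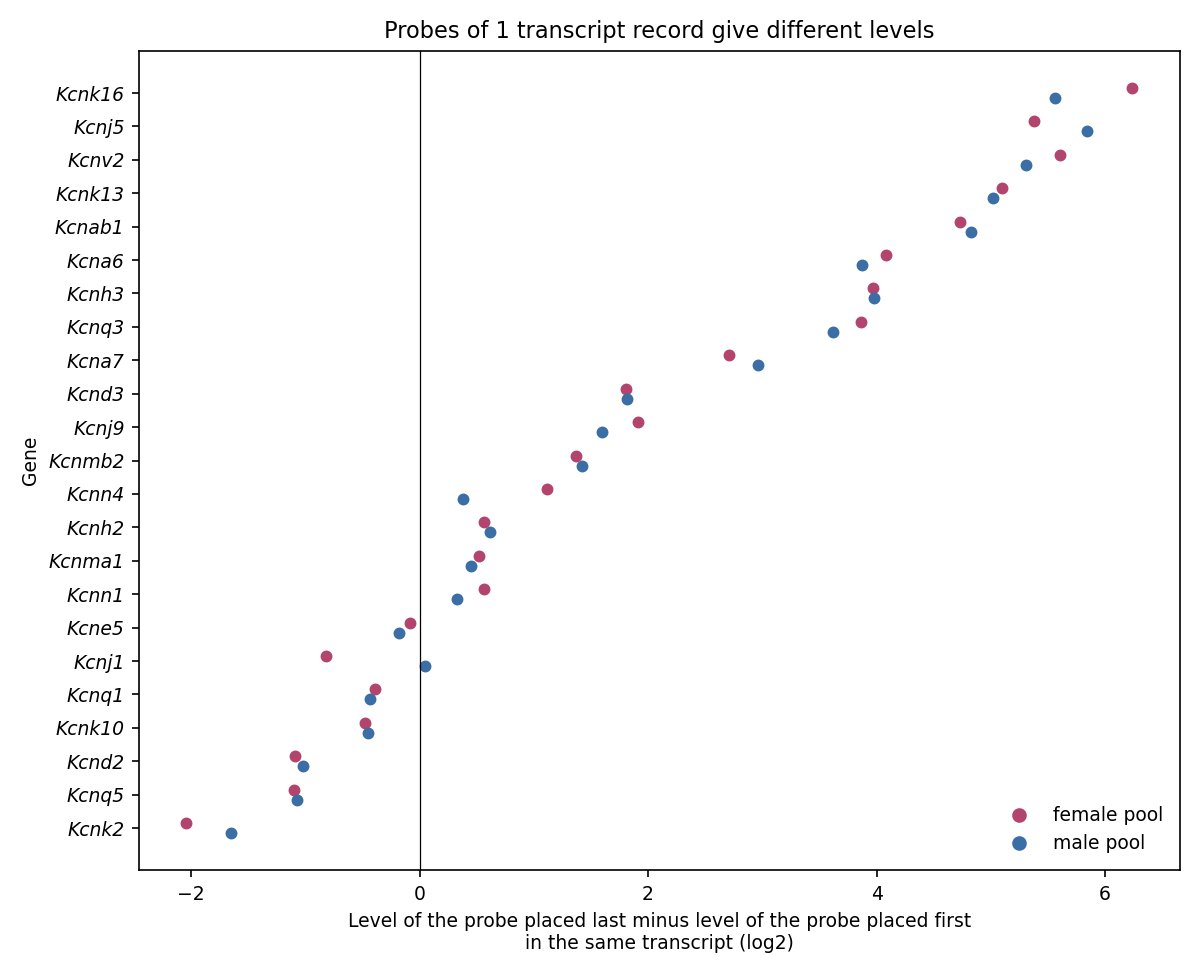
Level of the probe placed last minus that of the probe placed first in the same transcript record (horizontal axis, log2) for each member with several probes on 1 record (vertical axis, Kcng1 and a gene not reported here left out). The female pool is drawn above the male pool. Points to the right of 0 have the brighter probe nearer the transcript's end, as for Kcnab1 with 4.73 in females and 4.83 in males. The first probes of Kcnk16 and Kcnv2 were well above background in neither pool, so the size of their gain is not settled.

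The pools were alike for nearly all potassium channel genes. Of the 83 measured genes, 80 lay within 1.5-fold. At least 1.5-fold higher in females were 2, a share of 2.41% against 1.56% of all 20664 measured genes, and at least 1.5-fold higher in males was 1, a share of 1.2% against 0.842%. At 2-fold, 1 was higher in females, against 0.508% of all genes, and 0 in males, against 0.339%. These shares are near those of all genes. The median difference of the members was 0.029, with 44 higher in females and 39 in males, against a median of 0.00012 and 50% higher in females over all genes. The median of the members turned to -0.064 with spike-in scaling, -0.0040 with centring on measured probes and -0.0100 with quantile normalization. The median of all genes moved too, to -0.093, -0.033 and -0.017 in the same order.

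**Figure D3:**
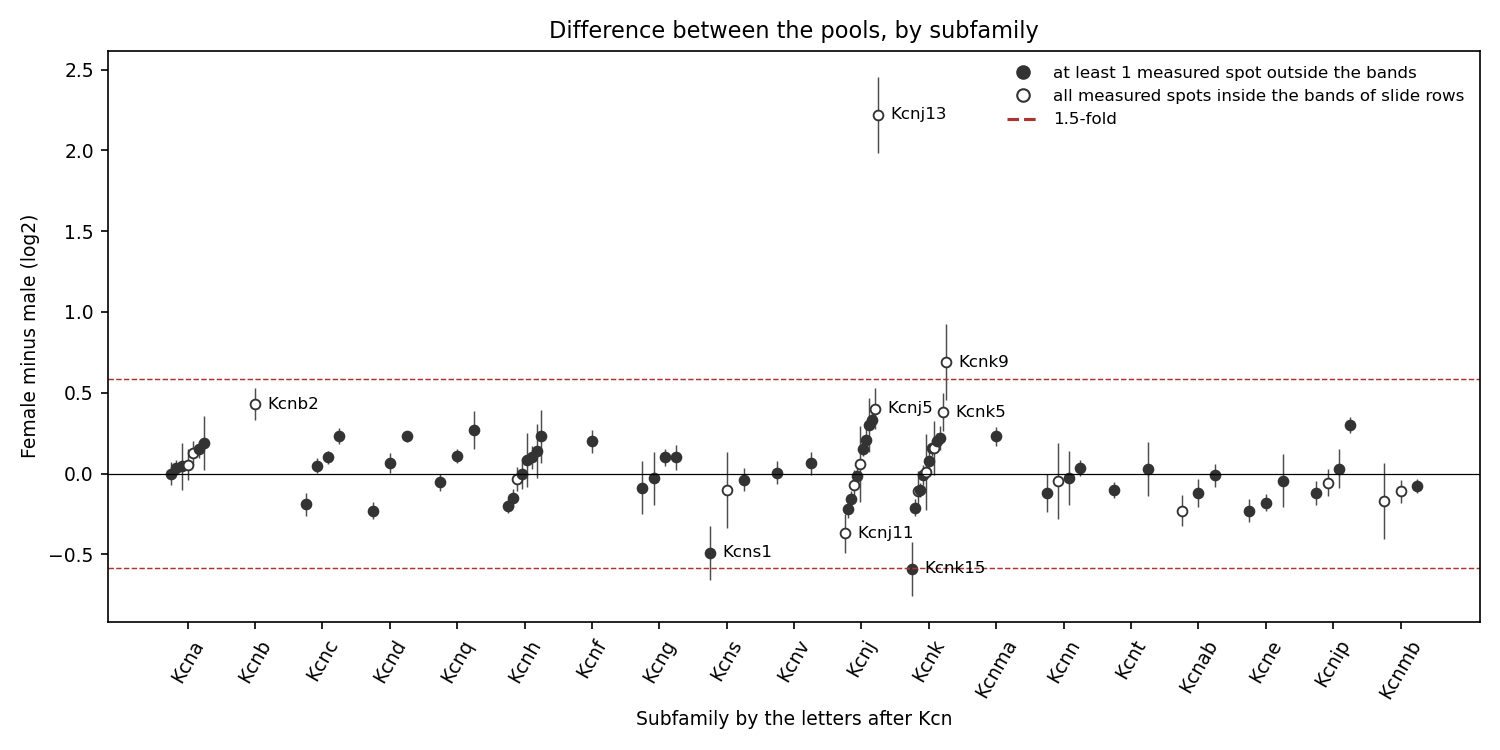
Female minus male difference (vertical axis, log2) of 81 measured members by subfamily (horizontal axis), with bars of 1 technical SD. Open circles are members measured only inside the bands of slide rows, and dashed lines mark 1.5-fold. Kcnj13 at 2.22 stands alone, and all measured members of Kcnab, Kcne, Kcnmb and Kcns lie below 0.

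Kcnj13 had the largest difference. It encodes Kir7.1, an inward rectifier known from the apical membrane of the choroid plexus and the retinal pigment epithelium. Its processed intensity was 112 in females and 30.6 in males, levels of -4.72 and -6.94, a difference of 2.22 ± 0.24 (technical SD, 1 spot) or 4.67-fold. The female reading was above the male reading, but the spot lay inside a band. Before background subtraction its mean was 175 in females and 88.1 in males, with local backgrounds of 39.0 and 42.0. The lowest level called well above background in males was -7.97. The 38 measured spots within 3 rows and columns of the Kcnj13 spot had a median difference of -0.0024, and 1 of them was at least 1.5-fold apart. With a normexp background correction on all spots the difference was -1.41, the opposite direction, and with that correction fitted without 2 defective spots, chosen after the data were seen, it was 1.27. The probe lies on chromosome 9 at 86207003 to 86207062 of rat build rn4, minus strand, and starts at base 1121 of the transcript.
Kcnj13 probe, first 30 of 60 bases, 5′ to 3′: taggactgacctagatattcatatcaatgg
The other choroid plexus markers give the tissue context. Of 14 listed, 12 were measured, Kcnj13 among them, and Cldn2 and Tmem72 were not well above background in both pools. Higher in females were 7 and in males 5, and only Kcnj13 and the transthyretin gene Ttr passed 1.5-fold. Ttr had a level of 1.09 in females and 0.11 in males, 1.98-fold, also from a spot inside a band. The summed level of the list was 3.02 times the 75th percentile in females and 1.94 times in males, a sum that adds probes of unlike brightness. Without Ttr the other 11 summed to 0.888 in females and 0.864 in males. Kcne2, the auxiliary subunit gene of the choroid plexus and stomach, had -2.94 in females and -2.71 in males, a difference of -0.23 ± 0.072 from 1 spot outside the bands. Kcnj13 and Kcne2 thus lay on opposite sides. The part of choroid plexus tissue in the Kcnj13 difference was not tested, and in these bulk samples fewer cells of a type and less RNA per cell cannot be told apart.

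**Figure D4:**
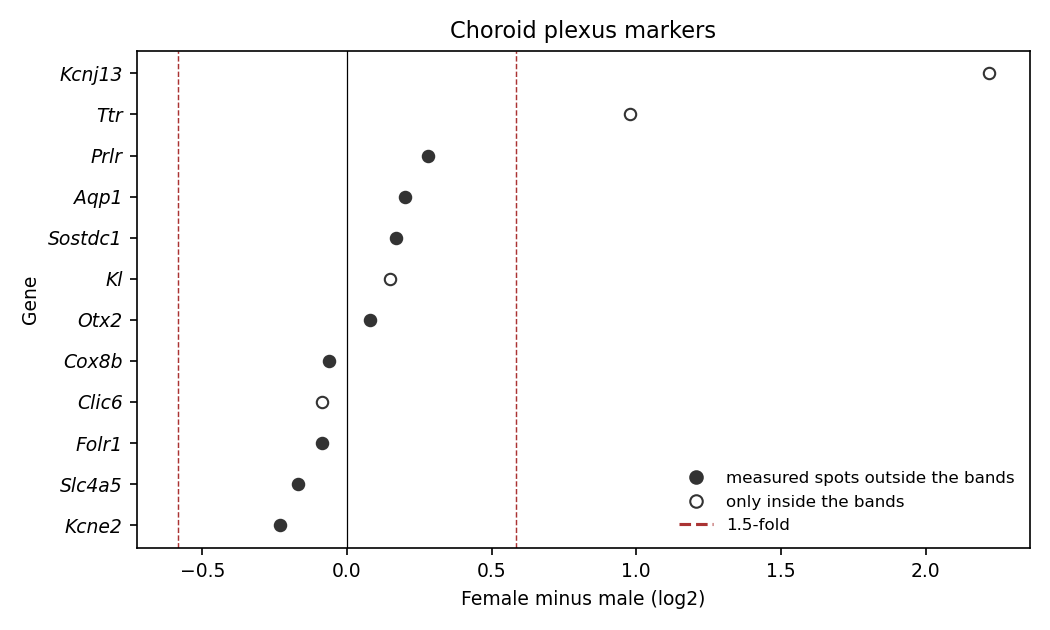
Female minus male difference (horizontal axis, log2) of the 12 measured choroid plexus markers (vertical axis). Open circles are genes measured only inside the bands of slide rows, and dashed lines mark 1.5-fold. Kcnj13 and Ttr lie to the right of the line, while Kcne2 has the lowest value, -0.23.

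Among 2-pore channels, 8 of 13 measured genes were higher in females, with a median of 0.077, and these genes lay between -0.59 and 0.69. Kcnk9 encodes TASK-3, an acid-sensitive background channel of neurons and of the adrenal cortex. Its intensity was 125 in females and 99.5 in males, levels of -4.55 and -5.24, a difference of 0.69 ± 0.24 or 1.61-fold, from 1 spot inside a band. It was -1.45, the opposite direction, with normexp on all spots, and 0.59 with normexp fitted without 2 defective spots. Kcnk15, the related TASK-5 gene, had an intensity of 19.0 in females and 36.6 in males, levels of -7.28 and -6.69, a difference of -0.59 ± 0.17 or 1.51-fold higher in males. It was near the lowest level called well above background in females, -7.72, and its difference was -2.63 with normexp on all spots and 0.040 with normexp fitted without 2 defective spots. These probes lie on chromosome 7 at 110232854 to 110232913, minus strand, and on chromosome 3 at 154778144 to 154778203, plus strand, of rn4.
Kcnk9 probe, first 30 of 60 bases: agtaccaggaatgtccgggctacagtccac
Kcnk15 probe, first 30 of 60 bases: ggctggatgctcatgctagaagcatggata
The TASK-1 gene Kcnk3 was at -0.27 in females and -0.47 in males, 0.20 ± 0.050 apart from a spot outside the bands. The acid-sensitive TASK-2 gene Kcnk5 was 1.30-fold higher in females from a spot inside a band. Kcnk4, which encodes the lipid- and stretch-gated TRAAK, was 1.16-fold higher in males. Kcnk1 had a level of 1.41 in females and 1.51 in males, and the 3 probes of the TREK-1 gene Kcnk2 averaged a difference of -0.010.

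Inward rectifiers had a median of 0.11, and those other than Kcnj13 lay between -0.37 and 0.40. Among G protein-gated subunits, Kcnj5 had levels of -4.26 in females and -4.66 in males, 1.32-fold, with probe differences of 0.16 and 0.63 that both came from the bands. Kcnj6 was at -2.75 in females and -2.96 in males, a difference of 0.21 ± 0.072. Kcnj9 differed by 0.15, from probes of -0.01 and 0.31. Kcnj3 was at 0.26 in females and 0.33 in males, -0.068 ± 0.090, within its technical SD and from a spot inside a band. Higher in females were 3 of the 4 subunit genes, against 50% of all measured genes.

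Both pore genes of ATP-sensitive channels were lower in females. Kcnj11, the Kir6.2 gene of neurons and beta cells, was at -3.98 in females and -3.60 in males, -0.37 ± 0.12 or 1.29-fold higher in males, from a spot inside a band. Among the 37 measured spots around it 3 were at least 1.5-fold apart. Kcnj8, the vascular Kir6.1 gene, was at -1.69 in females and -1.47 in males, -0.22 ± 0.054 outside the bands. Their sulfonylurea receptor partners did not share 1 direction. Abcc8, the partner of Kcnj11, differed by -0.15, and Abcc9, the partner of Kcnj8 in mural cells, by 0.50 from a spot inside a band. Of the 12 markers of pericytes, smooth muscle and endothelium, a list that includes Kcnj8 and Abcc9, 6 were higher in each pool. Their summed level was 3.60 in females and 3.69 in males, in multiples of the 75th percentile.

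Kcnj10 and Kcnj16 encode Kir4.1 and Kir5.1, which buffer potassium in astrocytes, and they differed in direction. Kcnj10 was at -4.59 in females and -4.89 in males, 0.30 ± 0.17, and Kcnj16 at -0.34 in females and -0.19 in males, -0.16 ± 0.050. The 8 astrocyte markers, Kcnj10 among them, had a summed level of 16.5 in females and 16.0 in males, with 5 higher in females. Kcnj12, a Kir2 channel gene, was 1.25-fold higher in females, 0.33 ± 0.054, from a spot outside the bands.

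The Kv4 channels carry the A-type current that delays firing, and Kcnd2 was the only member with a probe on 10 spots. Over these spots the level ran from -0.33 to 0.019 in females with a median of -0.076, and from -0.40 to -0.18 in males with a median of -0.29. All 10 spots were higher in females, by 0.070 to 0.25, and the mean difference was 0.20 ± 0.053 (SD over 10 spots). Its other probe, on 1 spot inside a band, differed by 0.26. Both probes lie on chromosome 4 of rn4, plus strand, the repeated one at 48047668 to 48047727 and the other at 48046217 to 48046276.
Kcnd2 probe with 10 spots, first 30 of 60 bases: tgcagaggtaaactgaagtgctttgtgtac
Kcnd2 probe with 1 spot, first 30 of 60 bases: aaactgtgaacaaccttacgtgaccacagc
The other Kv4 genes lay elsewhere. Kcnd1 had -2.05 in females and -1.82 in males, -0.23 ± 0.054, and Kcnd3 averaged 0.066 over 4 probes of 0.01 to 0.11. Among the subunits that assemble with Kv4, the calcium sensor gene Kcnip4 was at -1.26 in females and -1.56 in males, 0.30 ± 0.051. The other Kcnip genes lay between -0.12 and 0.029. The Kv4 partners Dpp10 and Dpp6, from the list of partner genes, differed by 0.26 and 0.023.

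Kv1 channels set the threshold of firing. Of 7 measured Kcna genes 6 were higher in females, with a median of 0.054 that turned to -0.039 with spike-in scaling. Kcna1, the Kv1.1 gene of axons, had a level of 2.09 in females and 1.96 in males, 0.13 ± 0.075 from a spot inside a band. Kcna2 was at -1.68 in females and -1.84 in males, 0.15 ± 0.054. The Kv2 channel gene Kcnb2 had -2.10 in females and -2.53 in males, 0.43 ± 0.097 or 1.35-fold, from a spot inside a band.

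Kv3 channels allow fast spiking. Kcnc1 was at 0.0023 in females and -0.048 in males, within 1.04-fold, and the 2 probes of Kcnc2 gave -0.11 and 0.31. Kv7 channels carry the M-current, a brake on repetitive firing. Kcnq3 differed by 0.11, with probes of -0.01 and 0.23. Kcnq5 was 1.21-fold higher in females, 0.27 ± 0.12. Among the 8 EAG family genes, 4 were higher in each pool. Kcnh2, the ERG1 gene, was at -0.54 in females and -0.34 in males, -0.20 ± 0.044, and both its probes were lower in females. The silent subunit genes had a median of -0.012, and Kcns1 was furthest out, at -5.27 in females and -4.78 in males, -0.49 ± 0.17 or 1.41-fold higher in males. Its difference was -1.97 with normexp on all spots and -0.085 with normexp fitted without 2 defective spots.

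Channels gated by calcium or sodium lay between -0.12 and 0.23. Kcnma1, the BK channel pore gene, was at -2.65 in females and -2.88 in males, 0.23 ± 0.061, and its 3 probes gave 0.10 to 0.43, all higher in females. Its neuronal beta subunit gene Kcnmb4 was at 1.07 in females and 1.15 in males, -0.075 ± 0.042. Of 2 probes of Kcnn4, the intermediate-conductance channel gene, 1 was well above background in males only, at -7.57 in females and -6.79 in males. The bound of this probe, 1.72-fold higher in males, is only the ratio of these readings. Its female reading was not well above background, although it exceeded the lowest level so called in females, -7.72. The other probe of Kcnn4, inside a band, differed by -0.047. The SK channel genes Kcnn2 and Kcnn3, which shape the afterhyperpolarisation, differed by -0.027 and 0.036. Kcnt1, the sodium-gated Slack gene, differed by -0.10 ± 0.050.

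Auxiliary and pore-forming subunits had medians on different sides of 0, and with 1 array a sex the difference between them was not tested. Of 13 measured auxiliary genes 11 were lower in females, with a median of -0.11, whereas 42 of 70 measured pore-forming and modifier genes were higher, with a median of 0.052. All measured members of Kcnab (3 genes), Kcne (3) and Kcnmb (3) were lower in females, with medians of -0.12, -0.18 and -0.11. Of these, Kcne4 with -0.043 ± 0.17 and Kcnmb3 with -0.17 ± 0.24 lay within their technical SD. The genes well above background in neither pool did not share 1 direction. Kcne3 read 2.17 and Kcnmb1 0.53, while Kcne1 read -0.48. Among the measured auxiliary genes Kcnab3, a Kv1 beta subunit gene, differed by -0.23 ± 0.097 from a spot inside a band, and Kcnab2 by -0.010 ± 0.072. Both probes of Kcne5 were lower in females, with a mean of -0.18 ± 0.051. The differences of the 13 measured auxiliary genes were small, at most 1.23-fold, and 0 of them passed 1.5-fold. The auxiliary count was 12 of 13 with quantile normalization, centring and spike-in scaling, 13 of 13 with normexp on all spots, 8 of 13 with normexp fitted without 2 defective spots and 7 of 9 without the bands. The pore-forming count was 8 of 70 with normexp on all spots, 28 of 70 with spike-in scaling, 39 of 70 with quantile normalization and centring, 55 of 70 with normexp fitted without 2 defective spots and 32 of 54 without the bands. The median of all genes moved too. It was -0.55 with normexp on all spots, -0.093 with spike-in scaling and 0.050 with normexp fitted without those 2 spots. With dim probes kept, 12 of 16 auxiliary genes were lower and 44 of 75 pore-forming and modifier genes higher in females.

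At the lower fold of 1.2, chosen after the values were seen, 9 members were higher in females, 10.8% against 8.58% of all genes, and 3 in males, 3.61% against 4.52%. The 9 were Kcnj13, Kcnk9, Kcnb2, Kcnj5, Kcnk5, Kcnj12, Kcnj10, Kcnip4 and Kcnq5, and the 3 were Kcnk15, Kcns1 and Kcnj11. All measured spots of Kcnj13, Kcnk9, Kcnb2, Kcnj5, Kcnk5 and Kcnj11 lay inside the bands. Of 18 partner genes outside the naming pattern, 15 were measured and 0 reached 1.5-fold. Their median was 0.023, with 10 higher in females, and they lay between the axonal adhesion gene Cntn2 at -0.23 and Abcc9 at 0.50. The Kv2 partner gene Amigo1 differed by 0.27 from a spot inside a band. Some marker lists of other cell types differed between the pools. All 12 meningeal and fibroblast markers were higher in females, with a summed level of 9.65 in females and 5.16 in males. All 7 measured blood cell markers were higher in males, with a median difference of -0.46. Of 7 listed pituitary markers, Gh1, Prl and Pit1 were not measured. The 4 measured ones were all higher in males, with a median of -0.50 and 2 past 1.5-fold, from Lhb at -0.022 to Tshb at -2.05. Markers of neurons, oligodendrocytes and vascular cells had medians of 0.032, -0.075 and -0.0076, with 0 past 1.5-fold. The part of these cell types in the differences of single channel genes was not tested.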

How the data were processed

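The authors deposited 1 Agilent scanner file per pool and a value table. The deposited intensity of each spot was background-subtracted and spatially detrended, per the file headers, by Feature Extraction 10.7.3.1, with build rn4. The submitters' processing notes name version 9.1. The deposited flags per the file headers (outlier, saturation, well above background) were used as given. No spot was saturated, and 84.2% of non-control spots in females and 84.9% in males were well above background. The deposited value table was proportional to the scanner signal, linear and uncentred, with medians of 29.5 in females and 29.0 in males. The number of arrays, 1 per sex, limits the precision.

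Spots with an outlier flag in either pool were removed (292 flags in females, 286 in males). Levels were averaged over spots, then over the probes of a gene with over 50% of spots well above background in both pools. A bound was taken against the higher of the dim pool's lowest level well above background and the dim probe's own level. A female spot of Kcnn4 lay above that lowest level without being called well above background, so a bound is approximate. Bands were 20-row bins in which the share of repeated spots over 4 robust SD from their probe's median exceeded 2 times the median bin. Members were named by a rule: the 8 largest differences per direction, bounds of at least 1.5-fold, repeated probes and a fixed list of 29 genes. Others are named where a count or a probe contrast required it, after their values were seen. Members, lists and bands were chosen with earlier results of these data known. Calculations used Python 3.11.15 and limma 3.58.1 and were tested on simulated data. Probes are named as in the files, and 121 of 128 member probes matched a current RefSeq accession of GRCr8. Promoter sequences were not used here. The values of 2 members are not reported here, although the counts and medians include them.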

Additional observations from a re-analysis of the deposited data

How the results depend on the processing

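No paired analysis was possible because each sex had 1 array, and for the same reason no array could be left out. Against 83 measured members, a median difference of 0.029 and counts at 1.5-fold of 2 (higher in females) and 1 (higher in males), 16 other settings were tried, 3 of them chosen after seeing the data. With the normexp correction on all spots the median of all genes became -0.55 and that of the members -0.89. The counts were 0 and 50 at 1.5-fold, against 0.232% and 48.8% of all genes. At 2-fold they were 0 and 36, and the share of all genes was not taken with this correction. Kcnj13 was -1.41 and Kcnk9 -1.45. On the male array 2 spots had a local background far above their own signal. Fitting the correction without them was a setting chosen after seeing the data. With it the median was 0.088 for the members and 0.050 for all genes. In that setting 0 members were 1.5-fold higher in males, against 0.174% of all genes. Kcnj13 was 1.27 and Kcnk15 turned to 0.040. Spike-in scaling gave a median of -0.064 for the members and -0.093 for all genes. It left 2 members 1.5-fold higher in males, against 1.24% of all genes. Without a filter on dim probes the counts were 4 and 2 at 1.5-fold, against 4.56% and 3.33% of all genes. At 2-fold they were 2 and 1, again without a share of all genes. Without the bands 0 members were 1.5-fold or 2-fold higher in females, since the spots of Kcnj13 and Kcnk9 lie there. Of all genes 0.993% were then 1.5-fold higher in females and 0.262% in males. A fold of 2 gave 1 and 0, and a fold of 1.2, chosen after seeing the data, 9 and 3. The split of members higher in females and in males was 44 to 39, and 29 to 54 with spike-in scaling, 8 to 75 with normexp on all spots and 60 to 23 with normexp without those 2 spots. Where no cause is given, it was not tested. Quantile normalization, centring, the deposited value table, kept outliers, the stricter flag rule, the brightest probe, the mean over spots and current symbols kept all these counts within 1.5 times. Of 717 recomputed values of single genes and subfamilies, 592 stayed within the technical SD. This count does not measure robustness, because several settings could hardly change a value. The deposited value table, kept outliers, the stricter flag rule and the mean over spots left nearly every value as it was. Normexp on all spots and spike-in scaling moved most values past the technical SD. Single spots dimmer than about -4 have a technical SD of 0.17 outside and 0.24 inside the bands, so smaller differences of members on 1 such spot were within it.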
